A study of Mus musculus with 10 samples.

Results

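The interferon response and antigen presentation genes examined here are a given list of 39 genes, read in sorted mouse mammary epithelial cells. Of the 39, 35 had at least 1 probe set that carried only that gene's symbol, and the brightest of these stood for the gene. Isg15, Gbp2 and Igtp were held only by probe sets that list several symbols, and no probe set carried the symbol Ifi44, so these 4 were not measured here. Mx2 was measured but too dim for the test, which left 34 members among 15815 genes tested. The cells came from virgin females of 8 to 12 weeks, Pygo2 SSKO mice and their control littermates caged together. Glands were digested for 1.5 h in all samples. The dissociated glands were stained for CD31, CD45 and TER119, the lineage markers of endothelial, blood and erythroid cells, and lineage-negative cells were sorted. The basal population, which includes the mammary stem cells, was CD29-high and CD24-positive, and the mature luminal population was CD29-low, CD24-positive and CD61-negative. Basal cells of 4 control and 3 SSKO samples and luminal cells of 3 control samples were each put on 1 Affymetrix array. Pygo2 encodes a chromatin-binding co-factor of beta-catenin. The labels neither spell out SSKO nor name the promoter that drives the deletion, while the series title describes the mutant cells as null for the gene. The samples are labelled biological replicates, with no statement of how many animals went into each, so a p-value here refers only to variation among these samples.

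Interferons are secreted proteins that warn cells of infection. Type I interferons signal through JAK kinases to a transcription factor complex that includes STAT2 and IRF9 and binds the interferon-stimulated response element (ISRE). Interferon gamma acts through the gamma-activated site (GAS) in its target genes and through the transcription factor IRF1. Their targets include proteins that restrict viruses, the GTPases that attack intracellular parasites, and the machinery that shows peptides to T cells. Class I presentation needs the immunoproteasome, the TAP transporter and beta-2 microglobulin, and works in nearly all cells. Class II presentation depends on the co-activator CIITA and the invariant chain CD74 and is typical of professional antigen-presenting cells, although epithelia can acquire it.

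The starts of these genes were read from RefSeq promoter windows on GRCm38.p6, which cover 250 bases before to 50 bases after each start and were held for 28 of the 39 members. The ISRE letters (GAAA, any 2 bases, GAAA), searched on both strands like the other motifs, occurred in 13 of the 28 members (46.4%), against 3.99% of 27025 genes and 3.44% of 32851 windows. The 13 were B2m, Bst2, Gbp2, Gbp3, Ifih1, Ifit1, Ifit3, Igtp, Irf2, Irgm1, Isg15, Rsad2 and Stat2. The GAS letters TTCNNNGAA were found in 9 of 28 (32.1%), against 9.55% of all genes. The Y box letters CTGATTGG, part of the control region of class II genes, were found in H2-Aa, Irf8, Psmb9 and Tap1, which is 4 of 28 (14.3%), against 4.70% of all genes. The other class II members, Cd74, H2-Ab1 and Ciita, had no window and were not searched, nor were Usp18, Ido1, Tap2 and Nlrc5. Psmb9 and Tap1 are neighbours on opposite strands with overlapping windows, and their Y box is 1 and the same site. ISRE matches can overlap each other, as they did in Bst2, Irgm1, Gbp3 and Isg15. The stretches below are shown because they hold the ISRE letters of 3 antiviral genes with wide array-to-array spread, of the only member whose SSKO and control arrays did not overlap (Bst2), and of 2 GTPases lower in luminal cells (Irgm1, Gbp3). They run 5′ to 3′ on the gene's strand, with the ISRE letters of either strand in capitals. Such a match is a description of the letters and not a measured binding site.
Ifit1, chr19:34640759-34640888, plus strand: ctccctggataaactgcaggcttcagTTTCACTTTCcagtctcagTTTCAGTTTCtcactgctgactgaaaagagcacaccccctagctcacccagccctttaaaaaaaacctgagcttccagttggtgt
Ifit3, chr19:34583359-34583528, plus strand: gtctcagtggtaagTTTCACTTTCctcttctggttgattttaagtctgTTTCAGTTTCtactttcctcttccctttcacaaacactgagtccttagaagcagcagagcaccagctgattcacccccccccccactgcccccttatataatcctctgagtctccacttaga
Rsad2, chr12:26456453-26456592, minus strand: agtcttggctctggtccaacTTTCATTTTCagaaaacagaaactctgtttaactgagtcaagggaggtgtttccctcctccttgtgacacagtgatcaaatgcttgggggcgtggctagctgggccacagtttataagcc
Bst2, chr8:71537473-71537612, minus strand: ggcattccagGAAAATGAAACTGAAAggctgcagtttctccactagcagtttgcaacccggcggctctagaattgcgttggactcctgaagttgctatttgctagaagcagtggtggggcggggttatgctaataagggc
Irgm1, chr11:48871421-48871480, minus strand: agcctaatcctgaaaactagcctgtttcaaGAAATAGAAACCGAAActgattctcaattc
Gbp3, chr3:142559984-142560043, plus strand: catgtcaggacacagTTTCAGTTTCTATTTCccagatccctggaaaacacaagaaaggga

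Values below are log2(intensity + 16), called signals, and differences are differences of group means on that scale. Pygo2 signals were 8.30, 9.09, 8.11 and 8.91 in control basal arrays 1 to 4 and 6.99, 5.94 and 5.86 in SSKO basal arrays 1 to 3, so the groups did not overlap and the targeted gene matched the labels. Basal markers were lower in the luminal arrays (8 of 8 called), and mature luminal markers were higher (7 of 7 called). Of 5 luminal progenitor markers, 4 were also called higher in the luminal arrays, among them Aldh1a3 and Kit (2.72 and 3.06), and Itgb3, which encodes the CD61 used in the gate, was called lower (-2.47). Luminal array 3 was nonetheless bright for the basal keratins, with Krt5 at 11.7 and Krt14 at 11.9, against 9.06 and 7.70 for Krt5 and 8.82 and 7.78 for Krt14 in luminal arrays 1 and 2. The 12 endothelial markers, of which Eng and Cdh5 were the brightest, differed between basal arrays despite the CD31 gate. With the average of the 7 basal arrays set to 0, their mean log2 level was highest in SSKO array 1, at 1.70, and stood at 0.75 in SSKO array 3 and at 0.73 in control array 1. The other 4 basal arrays lay between -1.10 and -0.48. The immune markers, led by Cd68 and Itgam, stayed between -0.24 and 0.17 in the basal arrays. Counts, medians and the members most affected are also given without these arrays.

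The SSKO comparison asks what loss of Pygo2 did to these genes in basal cells. None of the 34 members tested was called, that is, none had an adjusted p under 0.05 in limma's test with Benjamini-Hochberg adjustment over all genes, where 0.0379% of genes (6 of 15815) were called, 0.0316% as higher and 0.00632% as lower. At an unadjusted p under 0.05 there was 1 member, Bst2, where 3.03% of all genes passed. The SSKO mean was above the control mean for 32 of the 34, against 52.1% of all genes, and the members' median difference was 0.22, against 0.008. The members share their arrays, so the 32 are not separate observations. In sorted populations such as these, more cells of a type and more RNA per cell cannot be told apart. For 30 of the 34 the SSKO difference was smaller than the SD of the 4 control arrays. The 95% interval of the difference included 0 for 33 members. It stayed between -1 and 1, a 2-fold change either way, for 24, and it reached past 2-fold for the other 10, so changes of that size are not excluded for those.

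**Figure D1:**
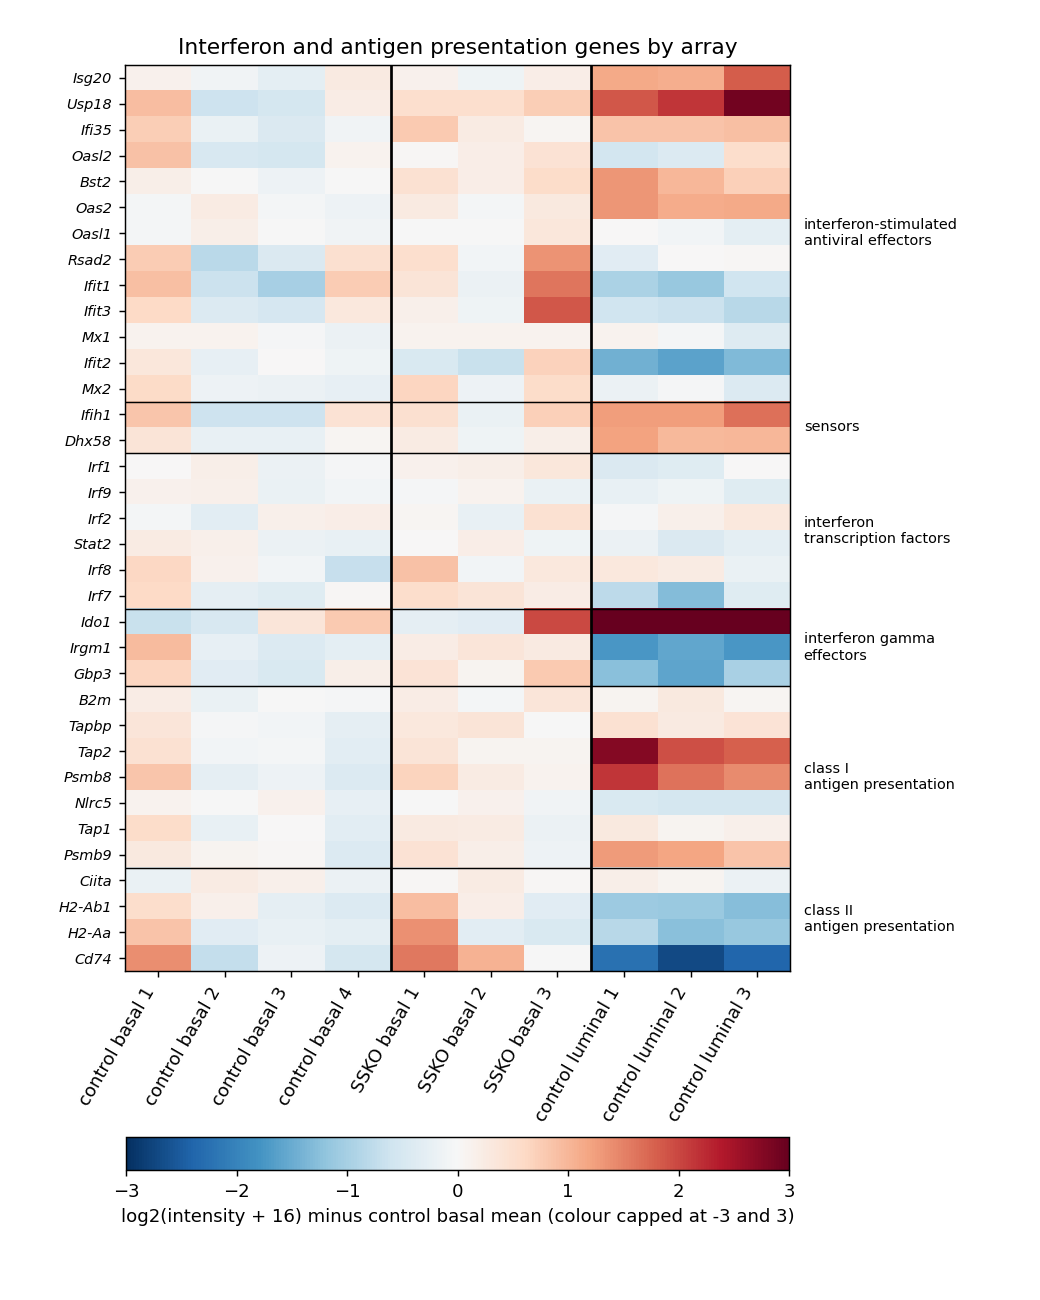
Each row is 1 of the 35 measured members, ordered by role, and each column 1 of the 10 arrays; the colour is the log2 signal minus the mean of the 4 control basal arrays, capped at -3 and 3. Control basal array 1 and SSKO basal arrays 1 and 3 are high for many members, and the luminal arrays are high for Ido1, Usp18, Tap2 and Psmb8 and low for Cd74, Irgm1 and Gbp3.

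Among the antiviral effectors, Bst2 (tetherin), which holds budding virus particles at the cell surface, had the smallest p. Its signals were 8.12, 7.91, 7.79 and 7.92 in control arrays 1 to 4 and 8.38, 8.14 and 8.49 in SSKO arrays 1 to 3. Every SSKO array lay above every control array, by little in the case of SSKO array 2, and 2.45% of all genes were separated in this direction (2.02% in the other, 4.46% in all). The difference was 0.40 (SE 0.16, 95% interval 0.06 to 0.75, 1.32-fold, unadjusted p = 0.0271), and its adjusted p of 1.00 in limma's test did not pass.

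Usp18, a protease that removes ISG15 from proteins and dampens the type I receptor, was at 8.96, 7.39, 7.49 and 8.25 in control arrays and at 8.52, 8.52 and 8.76 in SSKO arrays. The SSKO arrays were close together and lay within the control range, since control array 1 was the highest of the 7. The difference was 0.58 (SE 0.36, interval -0.21 to 1.36), with 0.37 without control array 2 and 0.89 without control array 1.
Ifit3, which with its relatives binds viral RNA, was at 8.48, 7.50, 7.39 and 8.22 in control arrays and at 8.04, 7.77 and 9.75 in SSKO arrays. SSKO array 3 stood well above the rest and the other SSKO arrays were within the control range. The difference of 0.63 (SE 0.42) went to 0.01 without that array.
Rsad2 (viperin), which makes a chain-terminating nucleotide, was at 8.44, 6.85, 7.24 and 8.15 in control arrays and at 8.18, 7.58 and 9.03 in SSKO arrays. SSKO array 3 was again the highest, control array 2 the lowest, and the difference was 0.59 (SE 0.40). It was 0.21 if SSKO array 3 was left out, 0.32 if control array 2 was, and 0.93 if SSKO array 2 was. Ifit1 had a difference of 0.61 (SE 0.51), while Ifit2 averaged 7.44 ± 0.25 (SD over 4 arrays) in control cells and 7.31 ± 0.73 (SD over 3) in SSKO cells. The other effectors, Isg20, Oasl1, Oasl2, Oas2, Ifi35 and Mx1, had differences between 0.07 and 0.36.

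**Figure D2:**
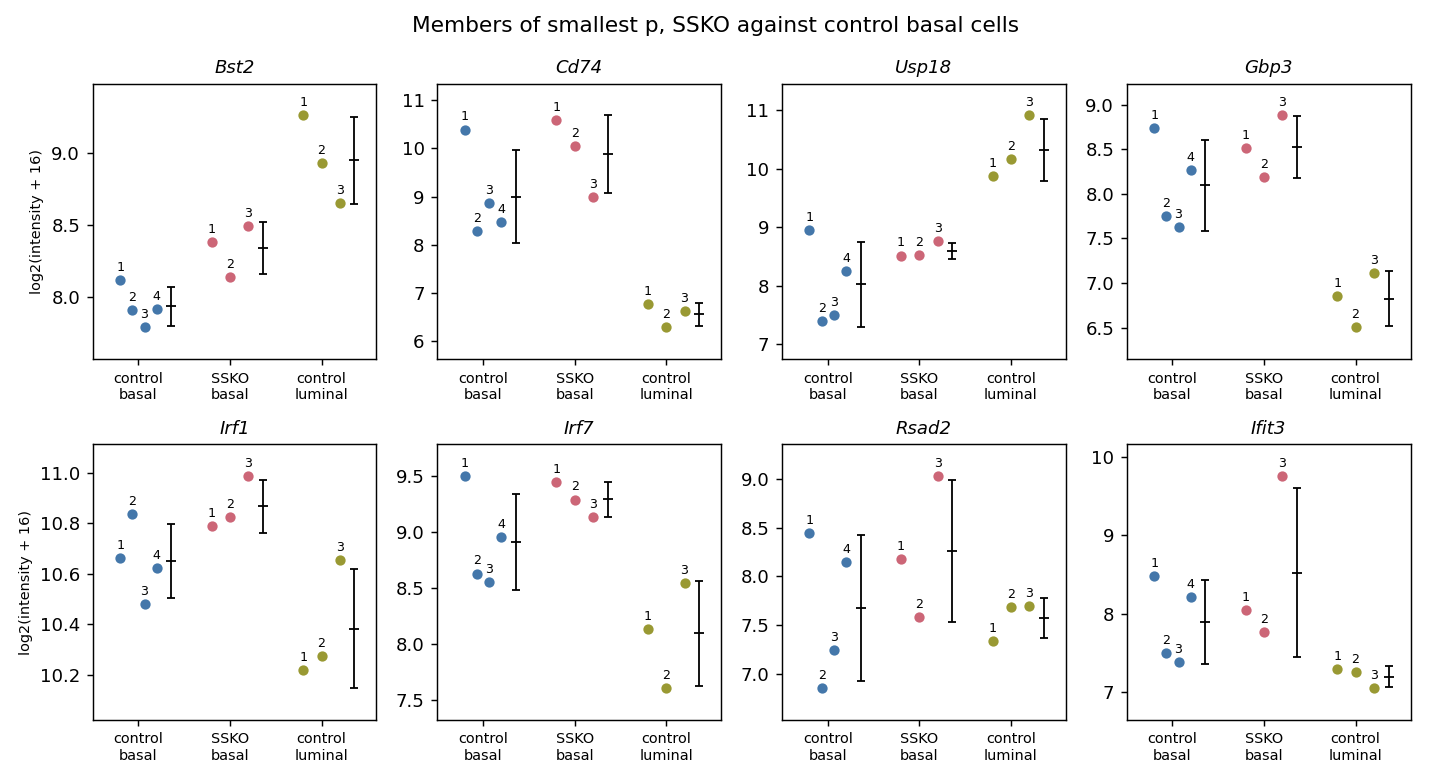
The 8 members with the smallest p in the SSKO comparison, 1 panel each, with the log2 signal of every array as a numbered point and the group mean ± SD as a bar beside it, on axes that do not start at 0, for basal cells of controls (4 arrays) and of SSKO mice (3) and for luminal cells of controls (3). In Bst2 the SSKO arrays lie above all control basal arrays; in the other 7 the groups overlap.

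The interferon transcription factors showed small differences. Irf7, the factor that amplifies type I interferon production, was at 9.50, 8.63, 8.55 and 8.95 in control arrays and at 9.45, 9.29 and 9.14 in SSKO arrays. Control array 1 reached the SSKO level and the other 3 control arrays lay below it, with a difference of 0.38 (SE 0.25, interval -0.18 to 0.94).
Irf1, which carries the interferon gamma response, was at 10.66, 10.83, 10.48 and 10.62 in control arrays and at 10.79, 10.82 and 10.99 in SSKO arrays. These groups overlapped, and the difference was 0.22 (SE 0.14). Irf8, a factor of myeloid and B cells, differed by 0.38 (interval -0.28 to 1.03), and Irf2, Irf9 and Stat2 by 0.10, -0.05 and 0.03. The RNA sensors Ifih1 (MDA5) and Dhx58 (LGP2) differed by 0.33 and 0.10, neither past the test.

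Of the interferon gamma effectors, Gbp3, a guanylate-binding protein that acts on pathogen vacuoles, was at 8.74, 7.75, 7.63 and 8.27 in control arrays and at 8.51, 8.19 and 8.88 in SSKO arrays. The groups overlapped, as control arrays 1 and 4 lay above SSKO array 2. The difference was 0.43 (SE 0.27), or 0.25 without SSKO array 3, 0.27 without control array 3 and 0.64 without control array 1. Irgm1, a GTPase of the same defence, differed by 0.29, and Ido1, which breaks down tryptophan, by 0.45 (interval -0.77 to 1.68).

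In class I presentation all 7 members were a little higher in SSKO cells, by 0.01 (Nlrc5) to 0.34 (Psmb8), and none was called. B2m, the light chain of every class I molecule, was at 13.10 ± 0.18 in control and 13.28 ± 0.22 in SSKO arrays, a difference of 0.18 with an interval of -0.14 to 0.50.
In class II presentation the invariant chain gene Cd74 had the largest SSKO difference of any member tested. Its signals were 10.39, 8.28, 8.86 and 8.47 in control arrays and 10.59, 10.05 and 9.0 in SSKO arrays. Control array 1 lay close to the highest SSKO array and above the other SSKO arrays, so the groups overlapped. The difference was 0.88 (SE 0.48, interval -0.18 to 1.94, 1.84-fold, unadjusted p = 0.0956), and it was not called. Leaving out SSKO array 1 lowered it to 0.52, and leaving out control array 1 raised it to 1.34. Without the 3 arrays bright for endothelial markers, which leaves 1 SSKO array, it was 1.51, again not called. H2-Aa and H2-Ab1, the chains of the class II molecule, differed by 0.20 and 0.26, and Ciita by 0.10.

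The members varied widely between arrays of the same group. The median SD over the 4 control basal arrays was 0.36 for the members, against 0.22 for all genes tested, and 14 of 34 members (41.2%) had an SD above 0.445, a value exceeded by 10% of all genes. The widest were Ifit1 (SD 0.97), Cd74 (0.96), Rsad2 (0.75), Ifih1 (0.74), Usp18 (0.73) and Ido1 (0.69). Control array 1 was the highest of the 4 control arrays for 25 of the 35 measured members. Over all 7 basal arrays, SSKO array 3 was highest for 13 members, control array 1 for 10 and SSKO array 1 for 7.

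The groups of genes did not peak in the same arrays. On the same scale, with the basal average at 0, the mean level of 13 antiviral effectors was 0.33, -0.38, -0.45 and -0.04 in control arrays 1 to 4 and 0.13, -0.15 and 0.55 in SSKO arrays 1 to 3. The class II members stood at 0.49, -0.32, -0.28 and -0.51 in control arrays and at 0.82, 0.14 and -0.35 in SSKO arrays. Thus SSKO array 3 was the highest basal array for the antiviral group and among the lowest for class II, and SSKO array 1 was the highest for class II. Ido1 was at 6.28, 6.46, 7.31 and 7.73 in control arrays and at 6.67, 6.61 and 8.92 in SSKO arrays. It was highest in SSKO array 3, like the antiviral group, but control array 1 was its lowest basal array, unlike in both groups.

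Markers of several other cell types also differed between the basal arrays, not all in the same way. All 12 endothelial markers had a higher mean in SSKO than in control basal cells (median difference 0.74, none called), and the arrays with their highest levels were SSKO arrays 1 and 3 and control array 1. Summed endothelial intensity ranged from 4879 to 14518 in control, 4591 to 28912 in SSKO and 3514 to 4909 in luminal arrays. With the endothelial level as a covariate, the members' median SSKO difference was 0.09, and without those 3 arrays, which leaves 1 SSKO array, it was 0.18 (27 of 34 above 0), still with no member called. Leaving out the same 3 arrays moved Ifit3 from 0.63 to 0.07 and Rsad2 from 0.59 to 0.16. It moved Bst2 from 0.40 to 0.27, Gbp3 from 0.43 to 0.31 and Irf1 from 0.22 to 0.18, and raised Usp18 from 0.58 to 0.81 and Irf7 from 0.38 to 0.58. The immune markers overlapped between groups, with summed intensities of 2101 to 2823 in control and 2412 to 2841 in SSKO arrays, and with their level as a covariate the median was 0.20. Cd52 was the only immune marker under the dimness threshold of 6.74 in all 7 basal arrays. Of the 14 measured, however, 11 were bright enough for the test, and Adgre1, Cd52 and Cd79a were not. The mean immune signal was 7.15 to 7.56 in control basal arrays, not far above that threshold. Dim signals thus limit what the immune level and its covariate can show. Mature luminal markers were at -0.55 to 0.01 in control and 0.18 to 0.56 in SSKO basal arrays, with 1 of 7, Cited1, called. None of the other marker lists had a called gene, but their levels differed too. Adipocyte markers were higher in SSKO cells in 4 of 4 tested (median difference 0.38, with Plin1 and Cidec without overlap). Fabp4, the brightest, differed by 0.58 with overlapping groups. Adipoq, too dim for the test, was at 6.73 in control and 6.64 in SSKO cells. Levels of the list with Adipoq were 0.32, -0.18 and 0.40 in SSKO arrays 1 to 3 and -0.23 to 0.03 in control arrays. Pericyte markers were higher in 3 of 5 (median 0.40), with Notch3 without overlap, and Rgs5, Pdgfrb and Cspg4 differed by 0.40, -0.10 and -0.01. Unlike the other pericyte markers, Notch3 was also higher in luminal than in basal control cells (2.50). Fibroblast markers were lower in 5 of 6 (median -0.44; Pdgfra and Fbln1 with an unadjusted p under 0.05), with control array 3 highest at 1.06. The brightest fibroblast markers, Dcn and Col3a1, differed by 0.03 and -0.24. The part of the mature luminal, adipocyte, pericyte and fibroblast levels in the members' differences was not tested. Control array 1 had the most weight among single arrays: without it the members' median was 0.35 and 9 members had an unadjusted p under 0.05, with a smallest adjusted p of 0.396 in limma's test.

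**Figure D3:**
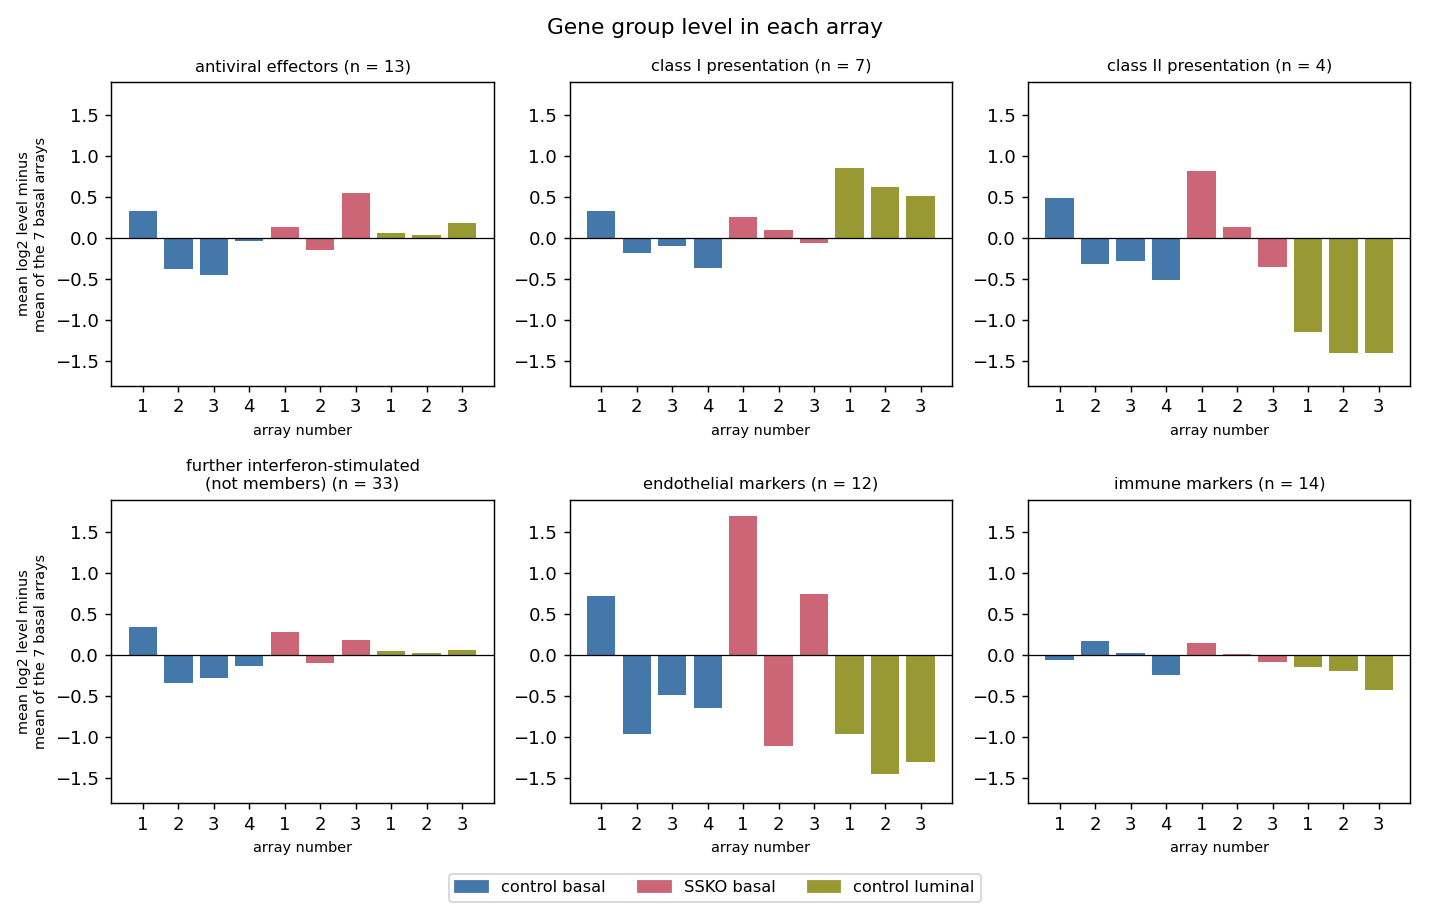
Mean log2 level of each gene group in each array with the average of the 7 basal arrays set to 0; bars are coloured by group (4 control basal arrays, then 3 of SSKO basal and 3 of luminal cells). The antiviral effectors are highest in SSKO array 3 (0.55), class II in SSKO array 1 (0.82), and the endothelial markers reach 1.70 in SSKO array 1.

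The second comparison asks how control luminal cells differ from control basal cells, and it shares its 4 control basal arrays with the first. Of the 34 members, 11 were called higher and 7 lower in luminal cells, or 52.9%, where 44.3% of all genes were called (24.6% higher, 19.7% lower), so the share of members is near that of the genome. At an unadjusted p under 0.05 there were 20 members, against 50.1% of all genes. The differences of 17 members lay above 0, against 57.1% of all genes, and the median difference was -0.04, against 0.07. The arrays of the 2 groups did not overlap for 20 members, 11 higher and 9 lower, where 46.3% of all genes were separated (25.8% higher, 20.5% lower). By role, the called members were 5 higher and 1 lower of 12 antiviral effectors, 1 lower of 6 transcription factors, 2 higher of 2 sensors, 1 higher and 2 lower of 3 interferon gamma effectors, 3 higher and 1 lower of 7 class I members, and 2 lower of 4 class II members. Without luminal array 3, all 18 kept their calls, with differences of 2.00 for Usp18, 2.35 for Tap2, 1.89 for Psmb8, 1.26 for Ifih1, -1.65 for Irgm1 and -2.47 for Cd74.

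**Figure D4:**
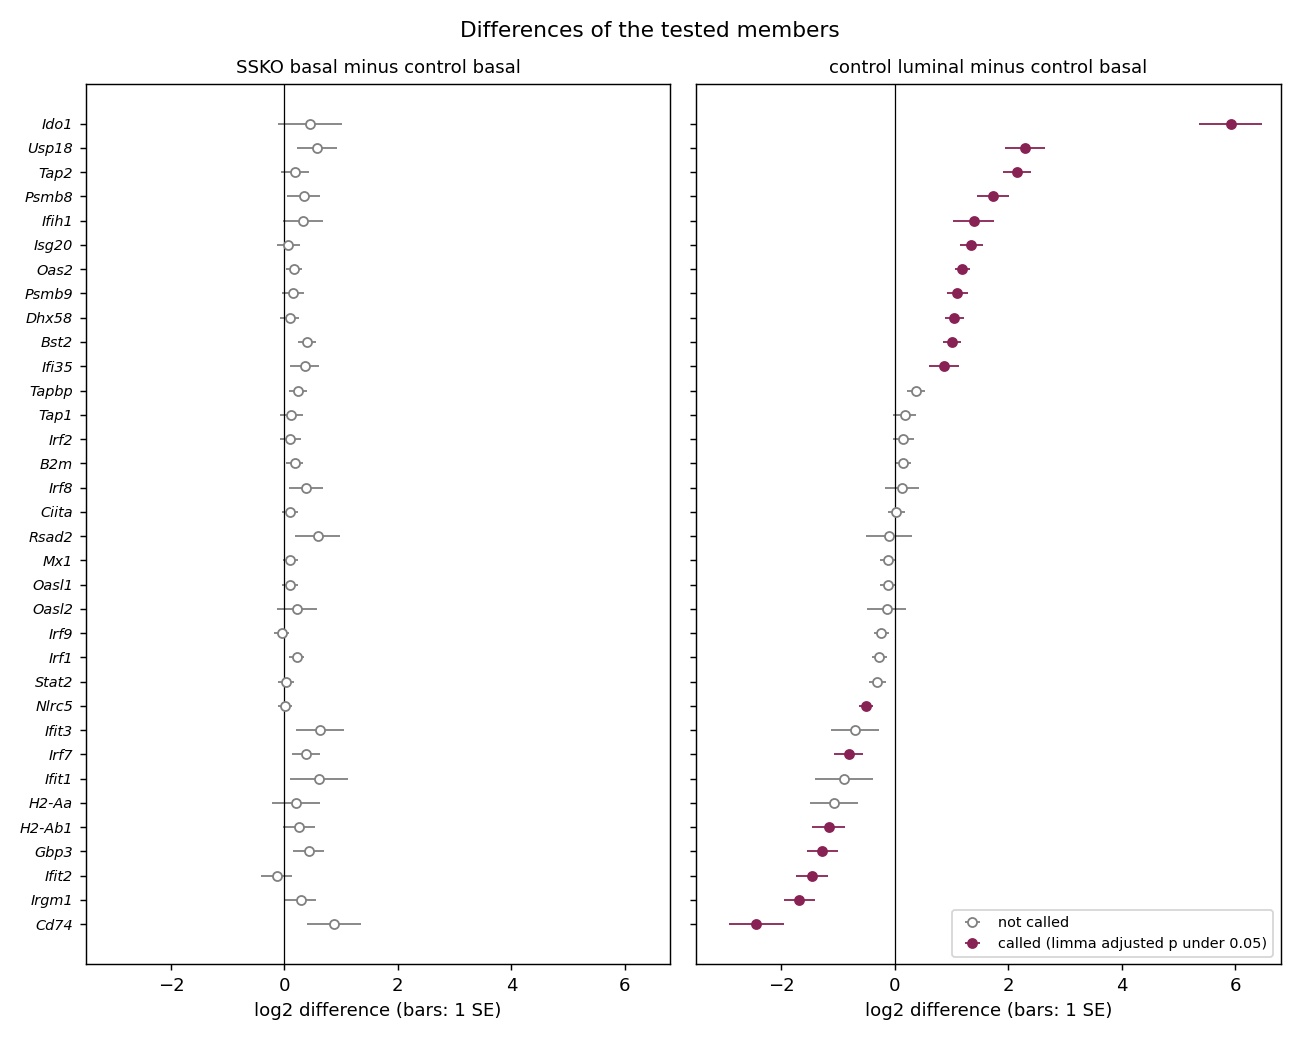
Log2 difference of each of the 34 tested members, with bars of 1 SE, for SSKO minus control basal and for control luminal minus control basal. SSKO differences lie between -0.14 and 0.88, and luminal differences between -2.44 for Cd74 and 5.92 for Ido1; called members are filled points.

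Ido1, the enzyme that starts tryptophan breakdown and limits T cells, had the largest difference of all members. It rose from 6.28, 6.46, 7.31 and 7.73 in control basal arrays to 12.22, 12.98 and 13.40 in luminal arrays. Every luminal array lay far above every basal array, those of SSKO cells included. The difference was 5.92 (SE 0.56, 60.6-fold, limma adjusted p = 6.72e-06) and was 5.65 without luminal array 3. Control basal arrays 1 and 2 lay under the dimness threshold of 6.74, and the added constant of 16 shrinks folds from dim signals.

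Among the antiviral effectors, Usp18 rose from 8.02 ± 0.73 (SD, n = 4) in basal cells to 9.88, 10.16 and 10.91 in luminal arrays. All luminal arrays lay above all basal arrays, and the difference was 2.30 (SE 0.36, 4.91-fold, limma adjusted p = 0.000302).
Isg20, an exonuclease that degrades viral RNA, rose from 9.95, 9.72, 9.54 and 10.11 to 10.97, 10.91 and 11.66. The groups were separated in each array, with a difference of 1.35 (SE 0.20, 2.55-fold, limma adjusted p = 0.000230). Oas2, which makes the second messenger that activates RNase L, rose by 1.19, Bst2 by 1.01 and Ifi35, a partner of the N-myc interactor, by 0.87.
Ifit2 went the other way, from 7.79, 7.21, 7.45 and 7.32 to 5.99, 5.84 and 6.12. It fell by 1.46 (SE 0.28, limma adjusted p = 0.00128), and since the luminal signals were under the dimness threshold its full size is not known. Its neighbours in the family, Ifit1 and Ifit3, had differences of -0.89 and -0.70 that did not pass, against a wide spread in basal cells. Rsad2, Oasl1, Oasl2 and Mx1 were not called, with Rsad2 at 7.67 ± 0.75 in basal and 7.57 ± 0.20 in luminal arrays. The antiviral effectors thus included members that rose, a member that fell and 6 that did not pass.

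Both RNA sensors rose. Ifih1, which detects long double-stranded RNA, went from 9.01, 7.56, 7.56 and 8.62 in control basal arrays to 9.44, 9.45 and 9.85 in luminal arrays. Control basal arrays 1 and 4 came closest to the luminal level, without overlap, and the difference was 1.39 (SE 0.36, limma adjusted p = 0.00757). Dhx58, which modulates that sensing, rose from 6.73 ± 0.29 to 7.78 ± 0.13, by 1.05 (SE 0.17), from a basal mean just under the dimness threshold.

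The 2 GTPases fell. Irgm1 was at 11.32, 10.13, 9.95 and 10.08 in control basal and at 8.63, 8.80 and 8.63 in luminal arrays. Luminal arrays were tightly grouped below all basal arrays, and Irgm1 fell by 1.68 (SE 0.27, 3.21-fold lower, limma adjusted p = 0.000432). Gbp3 was at 6.85, 6.50 and 7.12 in luminal arrays, below the lowest basal array, and fell by 1.27 (SE 0.27, 2.41-fold lower, limma adjusted p = 0.00257). Both genes carry the ISRE letters printed above. Bst2, also printed, and Ifih1, whose only match begins 32 bases after the start, carry them too, and these rose.

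Within class I presentation 3 members rose, 1 fell and 3 did not pass. Tap2, a subunit of the pump that carries peptides into the endoplasmic reticulum, rose from 9.70, 9.18, 9.18 and 8.94 to 12.01, 11.18 and 11.04. All luminal arrays were above all basal arrays, and the difference was 2.16 (SE 0.24, 4.47-fold, limma adjusted p = 2.66e-05). Tap1, the other subunit, was at 9.75 ± 0.39 (SD, n = 4) in basal and 9.93 ± 0.11 (SD, n = 3) in luminal arrays, a difference of 0.18 with an interval of -0.27 to 0.63. Whether Tap2 and Tap1 changed by different amounts was not tested.
Psmb8, a catalytic subunit of the immunoproteasome, rose from 9.40, 8.31, 8.41 and 8.17 to 10.71, 10.21 and 9.997. The groups were apart, with control basal array 1 nearest the luminal arrays, and the difference was 1.73 (SE 0.29, 3.33-fold, limma adjusted p = 0.000485). Its partner subunit Psmb9 rose by 1.11 (SE 0.19), from 8.10 ± 0.29 to 9.21 ± 0.23. Tapbp (tapasin), which loads peptides onto class I molecules, had a difference of 0.38 with an adjusted p of 0.078 in limma's test, and B2m one of 0.14 with an interval of -0.17 to 0.46. Nlrc5, the co-activator of class I genes, fell by 0.51 (SE 0.12, limma adjusted p = 0.00598), from 10.53 ± 0.18 to 10.03 ± 0.04. All 19 of its probe sets were lower in luminal cells, by 0.39 to 1.70, with a median difference of -1.08. The brightest probe set, which stood for the gene, thus fell less than most.

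Class II members were lower in luminal cells where they were called. Cd74 was at 10.39, 8.28, 8.86 and 8.47 in control basal and at 6.77, 6.29 and 6.62 in luminal arrays. No luminal array came near a basal array, and Cd74 fell by 2.44 (SE 0.48, 5.42-fold lower, limma adjusted p = 0.00156). H2-Ab1 fell by 1.16 (SE 0.29, limma adjusted p = 0.00669). H2-Aa was at 8.74, 7.56, 7.67 and 7.60 in basal and 7.06, 6.64 and 6.75 in luminal arrays, separated but with an adjusted p of 0.0587 in limma's test. The mean of Cd74 in luminal cells was under the dimness threshold, so its fall may be larger than measured. Ciita, the class II co-activator, was at 7.18 ± 0.22 in basal and 7.21 ± 0.17 in luminal arrays. Markers of several other cell types were lower in luminal arrays too. On the scale with the basal average at 0, fibroblast markers were at -3.12 to -2.44 (6 of 6 called lower) and pericyte markers at -0.98 to -0.82 (4 of 5 called lower, with Notch3 higher). Immune means were -0.42 to -0.14 (2 of 11 tested called lower) and overlapped those of control basal arrays. Endothelial means were -1.44 to -0.96. Only the highest of them, in luminal array 1 (-0.957), reached the lowest control basal array (-0.958, array 2). All 12 endothelial markers had a lower mean in luminal cells (median difference -0.83, 1 called lower). With the endothelial covariate Cd74 and H2-Ab1 stayed called, and with the immune covariate H2-Ab1 had a difference of -0.80 and an adjusted p of 0.0734 in limma's test. Their part in these results was not otherwise tested.

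Of the transcription factors, Irf7 was the only 1 called. It fell by 0.81 (SE 0.25, limma adjusted p = 0.0219), from 8.91 ± 0.43 in basal to 8.13, 7.61 and 8.55 in luminal arrays. Luminal array 3 lay just under the lowest control basal array, and the call was lost without luminal array 1 (-0.83, limma adjusted p = 0.0535) or luminal array 2 (-0.57, limma adjusted p = 0.109). Irf1, Irf2, Irf8, Irf9 and Stat2 had differences between -0.30 and 0.15 that did not pass. The second probe set of Irf1 had the opposite sign, at 0.08.

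Set beside each other, the 2 comparisons gave the following for the same genes. The 11 members that rose in luminal cells had SSKO differences of 0.07 to 0.58, and the 7 that fell had SSKO differences of -0.14 to 0.88. The 16 others had SSKO differences of -0.05 to 0.63. Because both comparisons subtract the same control arrays, no relation between them was computed.

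Beyond the members, 83 other genes of the interferon and presentation pathways were read, of which 72 were measured and 68 tested. None was called in the SSKO comparison, where 52 were above 0 with a median difference of 0.10. Gbp4, a relative of Gbp3, had the smallest p, with signals of 7.99, 7.36, 7.44 and 7.52 in control and 8.97, 7.69 and 8.39 in SSKO arrays and a difference of 0.77 (SE 0.26). Its groups overlapped through control array 1. The non-classical class I gene H2-M3 had a difference of -0.27 with no overlap, the only 1 of the 68 to be so separated in either direction, where 4.46% of all genes were (2.02% lower), and Irf3, a factor that starts interferon production, one of 0.32. In luminal cells, 25 of the 68 were called higher and 10 lower (51.5% together), again near the 44.3% of all genes.

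By role, 5 receptors and signalling genes rose and 3 fell of 12 tested, 6 sensors and adaptors rose and 1 fell of 8, and 8 further interferon-stimulated genes rose and 4 fell of 30. The counts were 3 higher and none lower of 8 for class I, and 3 higher and 2 lower of 10 for class II. Tlr3, the endosomal receptor for double-stranded RNA, rose from 7.74 ± 0.35 to 9.87 or more in each luminal array, by 2.26 (SE 0.24). Iigp1, an immunity-related GTPase like Irgm1, rose by 2.02 (SE 0.50), opposite in sign to Irgm1. Lgals3bp, a secreted glycoprotein, rose by 1.46 (SE 0.33) and Ifnlr1, the receptor chain for interferon lambda, by 1.43 (SE 0.23). The feedback inhibitor Socs1 fell by 1.98 (SE 0.20), from 9.72 ± 0.10 to 7.74 ± 0.40. Ifitm3, which blocks virus entry, fell by 0.94 (SE 0.12), Ifi30, a lysosomal thiol reductase of class II presentation, by 0.80 (SE 0.11) and Irf5 by 0.76 (SE 0.21).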

How the data were processed

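Total RNA of sorted cells was measured on 10 arrays. The deposited table holds 1 linear intensity per probe set and array; per the submitters' processing notes, Affymetrix Expression Console 1.1 and PLIER 2.0 were used, and no source used here says if the arrays were normalized to one another. No detection calls or batch labels were used, and the number of arrays limits the precision. Of 28815 probe sets, 21780 carried 1 gene symbol, 1605 several and 5430 none, from the platform annotation, with 21689 of the symbols matched to the RefSeq gene table (GRCm38.p6) and 91 kept as annotated. Signals were log2(intensity + 16), which understates changes of dim genes. The dimmest 25% of probe sets (mean under 6.74) were dropped, leaving 21611, and the brightest probe set stood for each gene. limma 3.58.1 (lmFit, eBayes; R 4.3.3) fitted 3 group means to all 10 arrays, with two-sided tests and Benjamini-Hochberg adjustment over 15815 genes. Intervals are 95% intervals of the moderated test. Figures used matplotlib 3.10.9.

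The members, lists and tests were chosen with earlier results of these data known. Every array is printed for Pygo2, for the 8 members of smallest p in the SSKO comparison and for the 10 called members of largest luminal difference; a few others with all arrays given (H2-Aa, Ido1 in SSKO cells) and Tap1 were picked after their values were seen. Of the other pathway genes, up to 4 called genes per direction were named, or, with none called, the 3 with the smallest p. The 2 brightest markers were named for the endothelial, immune, luminal progenitor, fibroblast, adipocyte and pericyte lists. Krt5, Krt14, Itgb3, Cited1, Cidec, Pdgfra, Fbln1, Pdgfrb, Cspg4, Adipoq, Adgre1, Cd52 and Cd79a were also picked after seeing values. On simulated data with 15815 genes, 28%, 82%, 96% and 100% of genes changed by log2 0.5, 1, 2 and 3 were recovered in the SSKO comparison and 10%, 80%, 94% and 100% in the luminal one. The simulated noise was independent between genes, and 50 genes drawn from all genes were changed at each size. The members' median control SD was 0.36, against 0.22 for all genes, and 6 genes were called in the real SSKO comparison. These shares thus do not give the chance of calling a changed member. Alternatives covered the added constant, filter, scaling, probe sets, spread estimate, array weights, replicate block, marker covariates and single arrays.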

Additional observations from a re-analysis of the deposited data

Results flagged for a closer look

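Control basal array 1 stood far from the other 3 control basal arrays for 3 of the 35 measured members, judged by the gap to the nearest array over the range of the 4 (above Dixon's critical value). Chance marks about 1 in 20 groups, and these members share their arrays. Irgm1 was at 11.3 in that array, against 9.95 to 10.1 in the others (ratio 0.872). H2-Aa was at 8.74, against 7.56 to 7.67 (ratio 0.906). Mx2, too dim to be tested, was at 6.67, against 5.84 to 5.94 (ratio 0.887). In all 3 genes control array 1 was the highest of the 4.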

How the results depend on the processing

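No member was called in the SSKO comparison under any of the 21 alternatives, and the members' median SSKO difference ran from 0.09 to 0.35 over them; leaving out each array in turn gave 0 called throughout and medians of 0.15 to 0.35. In the luminal comparison 13 to 20 members were called. Dropping the dimmest 50% of probe sets left 24 members tested, with 13 called and 4 of them lower instead of 7. Leaving out each array in turn gave 17 to 19 called, 11 to 12 higher and 6 to 8 lower, with medians around 0. Of the named members' luminal calls, 6 were lost: Irf7 without luminal array 1 or 2 and with the endothelial covariate (-0.65), and Ifih1 (0.88), H2-Ab1 (-0.80) and Ifi35 (0.87) with the immune covariate. The cause was not tested. With the replicate number as a block, 0 SSKO and 19 luminal members were called and the median SSKO difference was 0.17. Deviations of same-numbered SSKO and control arrays correlated at 0.63, 0.46 and 0.05, and SSKO array 3 correlated best with control array 4 (0.43). Those of same-numbered luminal and control basal arrays correlated at -0.08, -0.08 and -0.06. Luminal array 1 reached 0.39 with control array 2, and luminal array 3 reached 0.36 with control array 4. The numbers were therefore not taken to pair the samples, and the block by number may not match them. Other pairings of the samples were not tested. The alternatives without the 3 endothelial-bright basal arrays, and without luminal array 3 and control basal array 1 together, were chosen after seeing the data. Signals near the dimness threshold limit the size of the changes of Ifit2, Cd74, Dhx58 and Ido1.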
